A study of Mus musculus with 3 samples.

Results

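The 37 genes described here code for receptors that hold cells to the matrix and to each other. These genes were chosen by name, with earlier results of these data known. They were 12 integrin alpha subunits, 7 integrin beta subunits, 9 cadherins, 5 immunoglobulin-type adhesion molecules and 4 syndecans, out of 19938 genes that could be named on the array. Each of the 37 had exactly 1 probe set. RNA came from 3 cultured lines of mouse forestomach fibroblasts selected for FSP1, a fibroblast protein encoded by S100a4, with 1 array per line. The TGFBR2/SMAD4 cKO line carried conditional knockouts of Tgfbr2, whose product is the TGF-beta type II receptor, and of Smad4, a SMAD protein that both TGF-beta and BMP signals use, and came from normal forestomach. The TGFBR2cKO line carried the Tgfbr2 conditional knockout alone and was derived from squamous cell carcinoma tissue of that organ, and the wild-type line (wt) from normal tissue. All were grown in medium with fetal bovine serum and taken at low passage before confluence. The labels give the mice as C57BL6 and BALBc mixed and of either sex, while the sources used here give neither their age nor the promoter that drove recombination. Since each line had 1 array, no spread between replicates is known, differences are given without a p-value, and precision is limited by how few arrays there were.

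Integrins are pairs of an alpha and a beta subunit that bind matrix proteins outside the cell and link to actin inside it through adaptors such as talin and kindlin. Cadherins join neighbouring cells through calcium-dependent contacts and hold catenins at their inner ends, and the immunoglobulin-type molecules bind integrins or each other. Syndecans are transmembrane carriers of heparan sulfate, a sugar chain that binds growth factors and matrix. In fibroblasts these receptors are known for taking up tension from collagen and fibronectin and for mediating contact between fibroblasts.

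Levels are the deposited log2 signals, on which a difference of 1 is 2-fold, and differences subtract one array's log2 signal from another's. The size rule was applied to genes whose highest level reached 6.63, the median of all values, which 11808 genes, 30 of the 37 adhesion genes among them, met. Each of those 30 was at or above this median in all 3 arrays, so none of them was counted through 1 line alone. The other 7, Itga4, Itgb6, Itgb7, Itgb8, Cdh1, Cdh5 and Cdh6, had levels between 4.48 and 6.63 and differed by at most 0.16 between any pair of arrays. The highest of these, Cdh6, was at 6.63 in the TGFBR2cKO and wt arrays, just under the median before rounding.

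The samples as a whole set the limits of what follows. Tgfbr2 had levels of 10.29, 10.25 and 10.25 and Smad4 of 11.04, 11.06 and 11.06 in the TGFBR2/SMAD4 cKO, TGFBR2cKO and wt arrays, and the probe sets cover exons along each transcript, so these values do not check the labels. Xist was at 9.44, 5.35 and 5.33 and the Y-linked gene Eif2s3y at 5.01, 10.00 and 10.12 in the same arrays, so the TGFBR2/SMAD4 cKO line also differed from the other lines in sex pattern. All 11 fibroblast markers with a value were at or above the median signal. Of these, 9 were higher and 2 lower in TGFBR2/SMAD4 cKO than in wt, beside 31.1% and 32.2% of all genes tested. Pdgfra, Lum and Fap differed there by 1.40, 1.21 and 1.09, Thy1 by -2.36 and S100a4 by -0.48. The mean log2 level of 6 mesothelial markers was 6.93, 7.78 and 8.18 in the TGFBR2/SMAD4 cKO, TGFBR2cKO and wt arrays, and 5 of the 5 that passed the level filter were lower in TGFBR2/SMAD4 cKO than in wt. That of 11 smooth muscle and pericyte markers was 9.69, 10.63 and 10.63, with 8 of 10 lower, and that of 11 proliferation genes 7.94, 9.31 and 9.52, with 11 of 11 lower, beside 32.2% lower among all genes tested. Epithelial markers averaged 6.30, 6.57 and 6.60 over 11 genes, and leukocyte markers averaged 6.33, 6.66 and 6.50 over 8. The 9 endothelial markers averaged 6.11 in each array. At or above the median signal in at least 1 array were 5 of 11 epithelial, 3 of 9 endothelial and 3 of 8 leukocyte markers. Krt19 led the epithelial markers at 6.93, 9.25 and 8.82 and is also among the mesothelial markers above. Lyz2 led the leukocyte markers at 7.75, 9.52 and 8.70. Epcam, Krt5, Krt14, Trp63, Esrp1, Ovol1, Pecam1 and Ptprc were below the median signal in every array. Apart from the endothelial markers, these groups moved with the comparison, and their part in the differences below was not tested. Nor can genotype, sex pattern and, for the TGFBR2cKO line, tissue of origin be told apart. A lower signal from fewer cells of a type and from less RNA per cell cannot be told apart either.

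**Figure D1:**
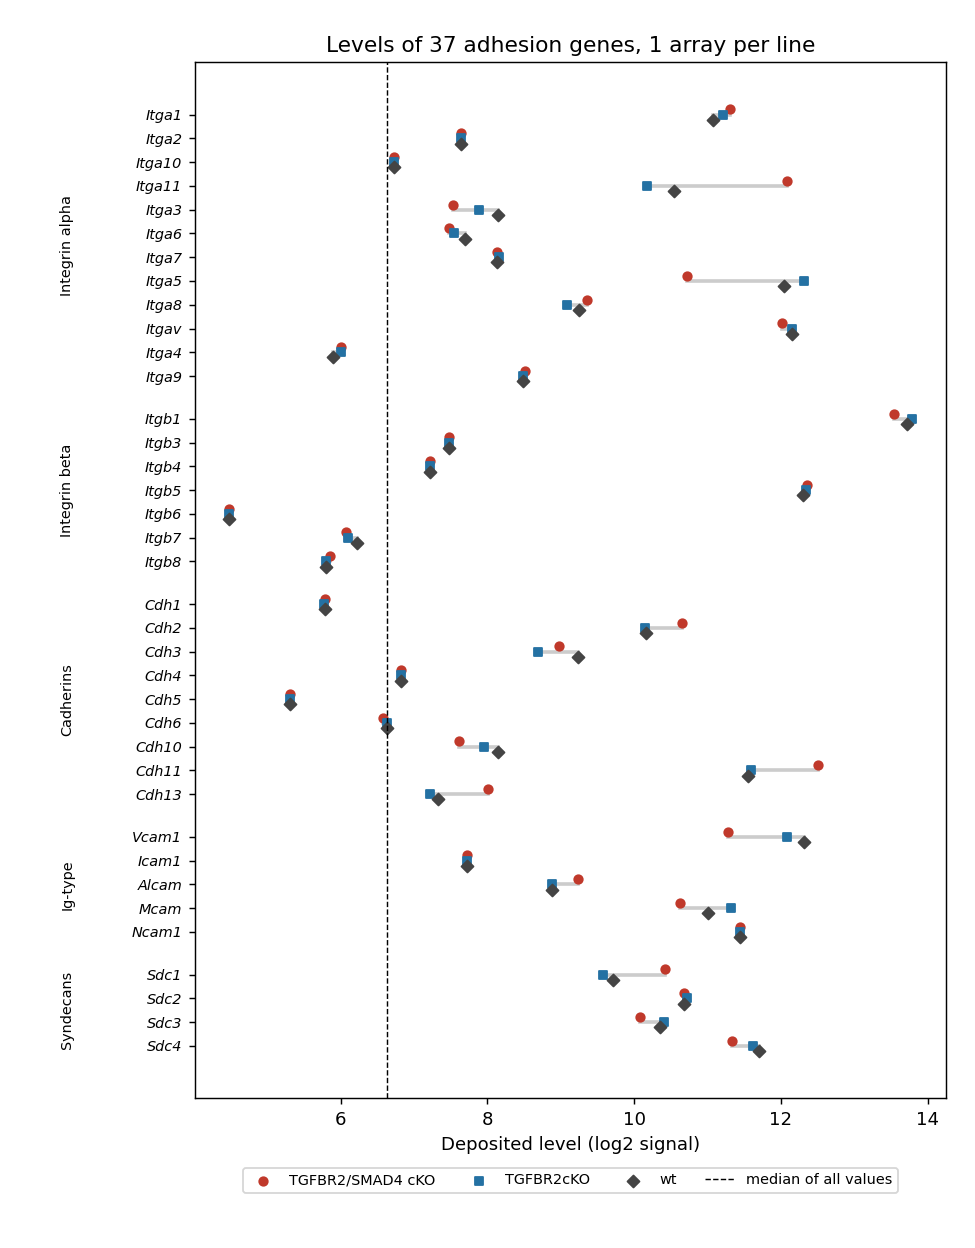
Deposited level (log2 signal) of each of the 37 adhesion genes, 1 point per array, ordered by family. Points should be compared along a row and not between rows. Itga11 stands apart to the right in the TGFBR2/SMAD4 cKO array and Itga5 to the left, while many rows have points that coincide.

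The upstream sequences of 3 members that stood apart in the TGFBR2/SMAD4 cKO array and have an entry in the promoter table used are shown because one of the deleted genes codes for a DNA-binding SMAD protein. Itga11, the collagen-binding alpha subunit that was highest in the TGFBR2/SMAD4 cKO array, Itga5, the fibronectin-binding subunit that was lowest there, and Sdc1, the syndecan with the largest difference, are given from RefSeq on build GRCm38.p6 from 250 bases before to 50 after the annotated start, at chr9:62677605-62677904 on the plus strand, chr15:103366742-103367041 on the minus strand and chr12:8771146-8771445 on the plus strand. Capitals mark the motif CAGAC on either strand, the short box that SMAD proteins are known to bind.
Itga11: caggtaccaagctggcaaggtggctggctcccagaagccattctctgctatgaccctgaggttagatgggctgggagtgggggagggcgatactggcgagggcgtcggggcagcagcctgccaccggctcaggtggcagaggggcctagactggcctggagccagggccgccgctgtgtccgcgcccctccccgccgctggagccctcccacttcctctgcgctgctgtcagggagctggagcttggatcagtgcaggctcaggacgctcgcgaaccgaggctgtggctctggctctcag
Itga5: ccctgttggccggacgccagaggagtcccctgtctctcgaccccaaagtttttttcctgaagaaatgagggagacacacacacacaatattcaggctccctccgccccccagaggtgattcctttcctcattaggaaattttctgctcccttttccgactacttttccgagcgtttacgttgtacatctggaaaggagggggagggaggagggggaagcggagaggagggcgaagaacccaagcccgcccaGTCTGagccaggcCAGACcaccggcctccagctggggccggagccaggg
Sdc1: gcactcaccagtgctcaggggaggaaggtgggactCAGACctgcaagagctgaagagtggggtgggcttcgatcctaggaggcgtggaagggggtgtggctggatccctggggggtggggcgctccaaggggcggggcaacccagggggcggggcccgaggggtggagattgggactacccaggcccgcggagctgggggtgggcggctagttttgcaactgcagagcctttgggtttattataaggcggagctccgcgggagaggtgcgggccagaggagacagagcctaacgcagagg
The Itga5 sequence held 2 CAGAC motifs, with first bases 1 and 14 bases past the start, on opposite strands. Sdc1 held 1, at -215 relative to the start, and Itga11 held 0. The motif was in 14 of the 25 entries for the adhesion genes, or 56%, which came from 23 genes, and in 49.6% of 32851 promoters of this length. Further motifs were searched on both strands and overlapped CAGAC in none of the printed sequences, where none of them was found. TGANTCA, the AP-1 site, was in 2 of the 25 entries and 7.81% of all promoters, GGAATG, the TEAD site, in 3 of the 25 and 14.7%, and the CArG box in 1 of the 25 and 1.63%. A match here describes letters only.

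The comparison of TGFBR2/SMAD4 cKO with wt, both from normal forestomach, showed 1 adhesion gene at least 2-fold higher, Itga11, and 2 at least 2-fold lower, Itga5 and Vcam1. That is 3 of 30, or 10%, beside 3.4% of the 11808 genes tested, of which 1.22% were higher and 2.18% lower. At 0.5 log2 or more apart stood 8 of 30, with 4 higher and 4 lower, beside 10.7% of all genes. The median difference over the 30 was 0 and that over all genes tested was 0, while the median absolute difference was 0.22 for the adhesion genes and 0.06 for all genes tested. Nothing was matched on level between these sets.

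Among the collagen-binding alpha subunits, which pair with the beta1 subunit, Itga11 had levels of 12.08 in the TGFBR2/SMAD4 cKO array, 10.18 in the TGFBR2cKO array and 10.54 in the wt array. The TGFBR2/SMAD4 cKO array was the high one, and the TGFBR2cKO array was a little below wt. The integrin it forms is the main fibrillar collagen receptor of mesenchymal cells. It was higher by 1.54 in TGFBR2/SMAD4 cKO than in wt, a 2.91-fold difference, and 167 of the 11808 genes differed as much or more. Against TGFBR2cKO it was higher by 1.91, or 3.75-fold. Itga1, whose integrin prefers basement membrane collagen, was at 11.31 in TGFBR2/SMAD4 cKO, 11.22 in TGFBR2cKO and 11.08 in wt, a difference of 0.24 between the first and the last. Itga2 and Itga10, the remaining collagen receptors, were equal in the 3 arrays, at 7.64 and 6.73. The difference in this class was thus carried by 1 of its 4 genes.

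The RGD-binding alpha subunits recognise a short peptide in fibronectin, vitronectin and related proteins. Itga5, the alpha subunit of the classical fibronectin receptor, had levels of 10.72 in the TGFBR2/SMAD4 cKO array, 12.31 in the TGFBR2cKO array and 12.04 in the wt array. It was the low line that stood apart, with the TGFBR2cKO array slightly above wt. The difference of TGFBR2/SMAD4 cKO from wt was -1.33, a 2.51-fold difference that 224 genes matched or exceeded, and that from TGFBR2cKO was -1.59, or 3.01-fold. Itgav, the shared alpha subunit of the vitronectin receptors that also release latent TGF-beta, was at 12.01 in TGFBR2/SMAD4 cKO, 12.15 in TGFBR2cKO and 12.15 in wt. Itga8, a receptor subunit for nephronectin in mesenchyme, was at 9.36, 9.08 and 9.24 in the same arrays. Neither differed by more than 0.28 in any comparison.

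Of the 3 laminin-binding subunits 2 were lower in TGFBR2/SMAD4 cKO than in wt, 1 was equal, and 0 were 2-fold different. Over all genes tested 32.2% were lower, 36.7% equal and 3.4% at least 2-fold different. With 3 genes these counts do not describe a trend of the class. Itga3 had levels of 7.53 in TGFBR2/SMAD4 cKO, 7.89 in TGFBR2cKO and 8.15 in wt. Its level was lowest in the line with both knockouts and highest in wt, with a difference of -0.62 between them. Itga6, the partner of beta4 in the hemidesmosomes of epithelium, was at 7.48, 7.55 and 7.69 in that order. Itga7, a laminin receptor best known from muscle, was at 8.13, 8.16 and 8.13. Itga9, which binds tenascin-C and VCAM1 among others, was at 8.52, 8.49 and 8.49, and Itga4, the VCAM1 receptor subunit of leukocytes, was under the median signal at 6.00, 6.00 and 5.90.

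The beta subunits moved little. Itgb1, the partner of all the collagen- and laminin-binding subunits above and of alpha5, had levels of 13.54 in TGFBR2/SMAD4 cKO, 13.78 in TGFBR2cKO and 13.72 in wt. It was lower by 0.18 in TGFBR2/SMAD4 cKO than in wt, far less than either of its partners Itga11 and Itga5 differed. Itgb5, a partner of alphav, was at 12.35, 12.34 and 12.30 in the same arrays, and Itgb3 and Itgb4 were equal in all of them, at 7.48 and 7.21. Itgb6, Itgb7 and Itgb8, whose products serve epithelial cells, leukocytes and TGF-beta activation, were under the median signal in every array, at 4.48 to 6.23. Over the 4 beta subunits that passed, no difference between lines exceeded 0.24.

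**Figure D2:**
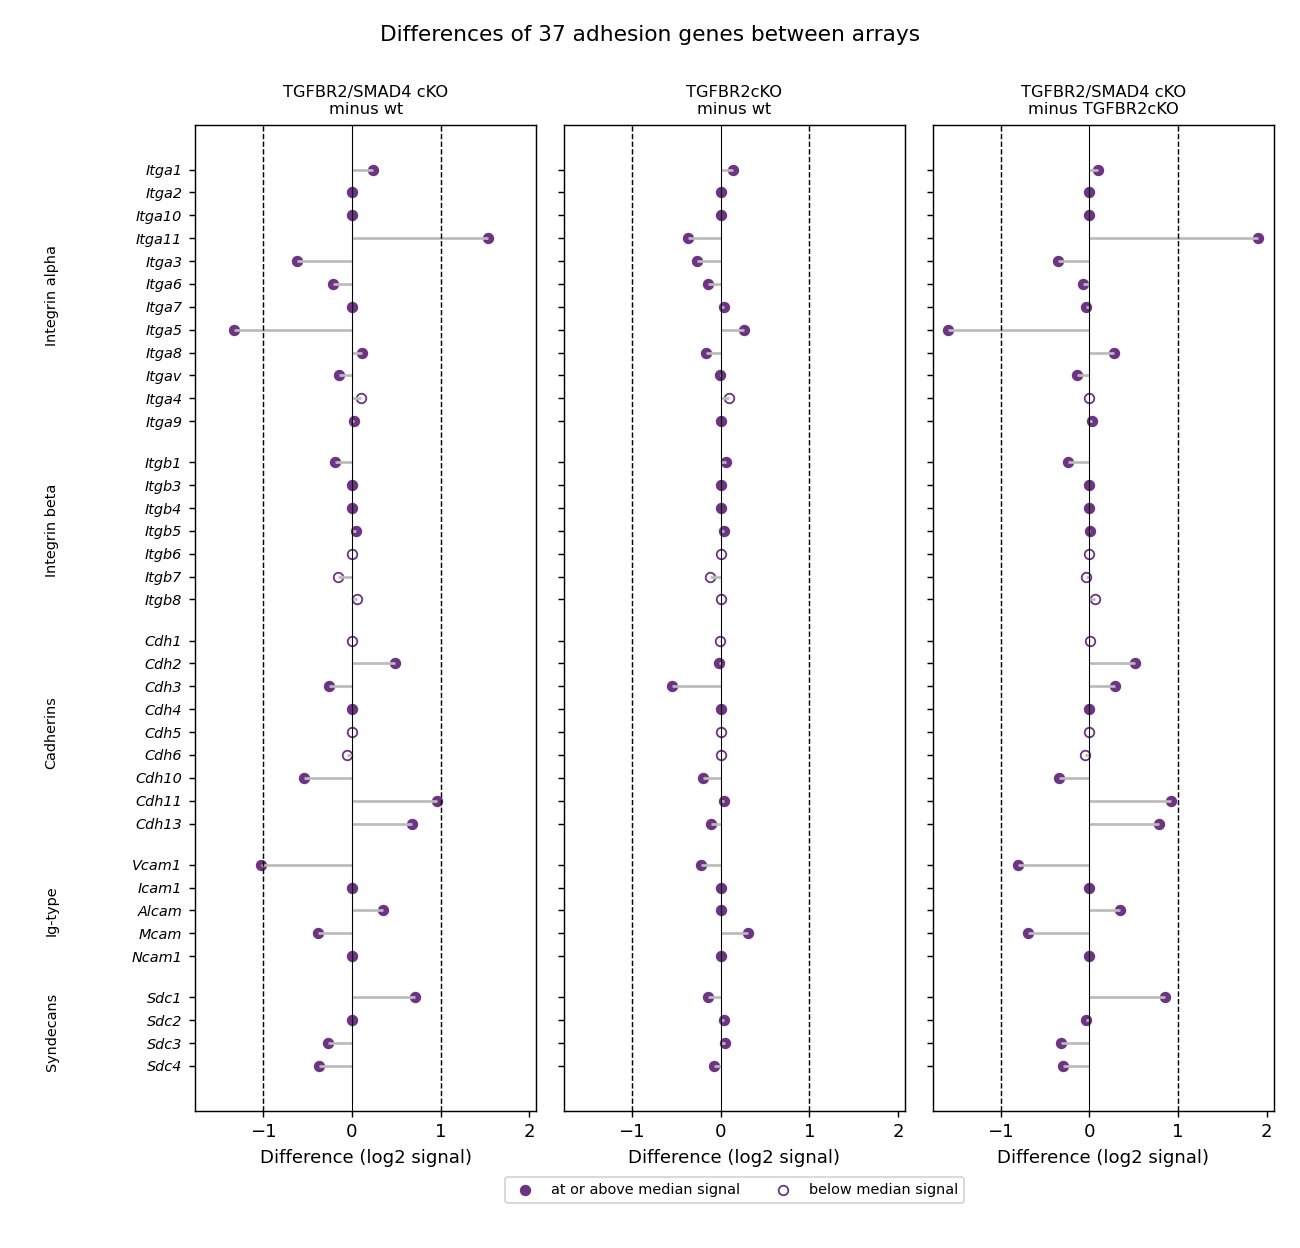
Difference in log2 signal for each adhesion gene in the 3 comparisons, with filled points for genes at or above the median signal, open points for those below it and dashed lines at 2-fold. Itga11, Itga5 and Vcam1 lie past a line in the left panel, no gene does in the middle panel, and Itga11 and Itga5 do in the right panel.

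Among cadherins no gene differed 2-fold, and 3 of the 6 that passed were higher in TGFBR2/SMAD4 cKO than in wt, 2 were lower and 1 was equal, beside 31.1% higher, 32.2% lower and 36.7% equal over all genes tested. Cdh11, the cadherin that joins fibroblasts and other mesenchymal cells, had levels of 12.51 in the TGFBR2/SMAD4 cKO array, 11.59 in the TGFBR2cKO array and 11.55 in the wt array. Only the line with both knockouts stood apart, by 0.96 from wt and 0.92 from TGFBR2cKO. These are 1.94-fold and 1.89-fold, just short of the 2-fold size rule. A further 3 probe sets carry the Cdh11 symbol together with other symbols and were not used. Cdh13, a cadherin without a cytoplasmic tail that is tied to the membrane by a lipid anchor, was at 8.01 in TGFBR2/SMAD4 cKO, 7.22 in TGFBR2cKO and 7.33 in wt. Cdh2, the N-cadherin of neurons and mesenchyme, was at 10.66, 10.15 and 10.17 in the same arrays. Both were highest in TGFBR2/SMAD4 cKO, by 0.67 and 0.49 over wt.

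Cdh10 and Cdh3 ran lower than in wt. Cdh10, a cadherin known mainly from brain, was at 7.61 in TGFBR2/SMAD4 cKO, 7.95 in TGFBR2cKO and 8.14 in wt. Cdh3, the P-cadherin of basal epithelium, had levels of 8.98 in TGFBR2/SMAD4 cKO, 8.68 in TGFBR2cKO and 9.23 in wt. Here TGFBR2cKO was the lowest line, by 0.55 against wt. The epithelial E-cadherin gene Cdh1 and the endothelial VE-cadherin gene Cdh5 were under the median signal, at 5.78 and 5.31 in each array, and Cdh4 was at 6.82 in each.

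The immunoglobulin-type genes held the third 2-fold difference. Vcam1, which codes for a ligand of alpha4 integrins that is induced by cytokines, had levels of 11.28 in the TGFBR2/SMAD4 cKO array, 12.08 in the TGFBR2cKO array and 12.31 in the wt array. Both knockout lines were below wt, the one with both deletions by more. The difference from wt was -1.03, a 2.04-fold difference, and 386 genes differed as much or more. With quantile normalization this difference was -0.99 and no longer 2-fold. Mcam, an adhesion molecule of pericytes and endothelium, was at 10.62 in TGFBR2/SMAD4 cKO, 11.32 in TGFBR2cKO and 11.01 in wt, so that the knockout lines lay on either side of wt. Alcam, which binds itself and CD6, was at 9.23, 8.88 and 8.88 in those arrays, higher by 0.35 in TGFBR2/SMAD4 cKO than in wt. Icam1, a ligand of leukocyte integrins, and Ncam1, the neural cell adhesion molecule, were equal in the 3 arrays, at 7.73 and 11.44.

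The syndecans did not move as one. Sdc1, the main syndecan of epithelium, which stroma can also express, had levels of 10.42 in the TGFBR2/SMAD4 cKO array, 9.57 in the TGFBR2cKO array and 9.72 in the wt array. It was higher in TGFBR2/SMAD4 cKO by 0.71 than in wt and by 0.85 than in TGFBR2cKO, or 1.63-fold and 1.81-fold. Sdc4, the focal adhesion syndecan that acts beside alpha5 integrin on fibronectin, was at 11.33 in TGFBR2/SMAD4 cKO, 11.62 in TGFBR2cKO and 11.70 in wt. Sdc3, found largely in nerve and muscle, was at 10.08, 10.40 and 10.35 in the same arrays. Both were lowest in TGFBR2/SMAD4 cKO, with differences from wt of -0.37 and -0.27. Sdc2, the mesenchymal syndecan, was at 10.68, 10.72 and 10.68.

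The comparison of TGFBR2cKO with wt, which also sets carcinoma against normal tissue, held 0 adhesion genes that were 2-fold higher or lower, beside 0.0339% of all genes tested, 0.0254% higher and 0.00847% lower. Cdh3 at -0.55 was the 1 of 30 that differed by 0.5 or more, beside 0.61% of all genes. After it came Itga11 at -0.37, Mcam at 0.31, Itga5 at 0.27, Itga3 at -0.26 and Vcam1 at -0.22. The median over the 30 was 0, as over all genes tested, with 9 genes above 0 (30%), 12 below (40%) and 9 equal (30%), beside 25.8%, 19.0% and 55.1% of all genes tested.

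The comparison of TGFBR2/SMAD4 cKO with TGFBR2cKO bears on the loss of Smad4 but does not isolate it, because tissue of origin and sex pattern differ too. Here 1 adhesion gene, Itga11, was at least 2-fold higher and 1, Itga5, at least 2-fold lower, or 2 of 30 beside 3.57% of all genes, 1.32% higher and 2.25% lower. At 0.5 or more apart were 8 of 30, beside 11.4%, namely Itga11, Cdh11, Sdc1, Cdh13 at 0.78 and Cdh2 at 0.51 on the higher side, and Itga5, Vcam1 at -0.80 and Mcam at -0.70 on the lower side. The comparisons share arrays and are not independent. Set against wt, 6 of the 30 had opposite signs in the knockout lines with at least 0.1 in TGFBR2cKO. Itga11 read 1.54 in TGFBR2/SMAD4 cKO and -0.37 in TGFBR2cKO, and Itga5 read -1.33 and 0.27. Sdc1 read 0.71 and -0.15, Mcam -0.38 and 0.31, Cdh13 0.67 and -0.11, and Itga8 0.12 and -0.17. Such genes were not counted over all genes tested, so the 6 of 30 cannot be set beside a background share.

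Many genes had identical levels across arrays. Of the 30 adhesion genes 7 were equal in all 3 arrays, or 23.3%, beside 32.7% of all genes tested. These 7 were Itga2, Itga10, Itgb3, Itgb4, Cdh4, Icam1 and Ncam1. Equal values can hide a small difference, so a difference of 0 here is a limit of the deposited values.

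**Figure D3:**
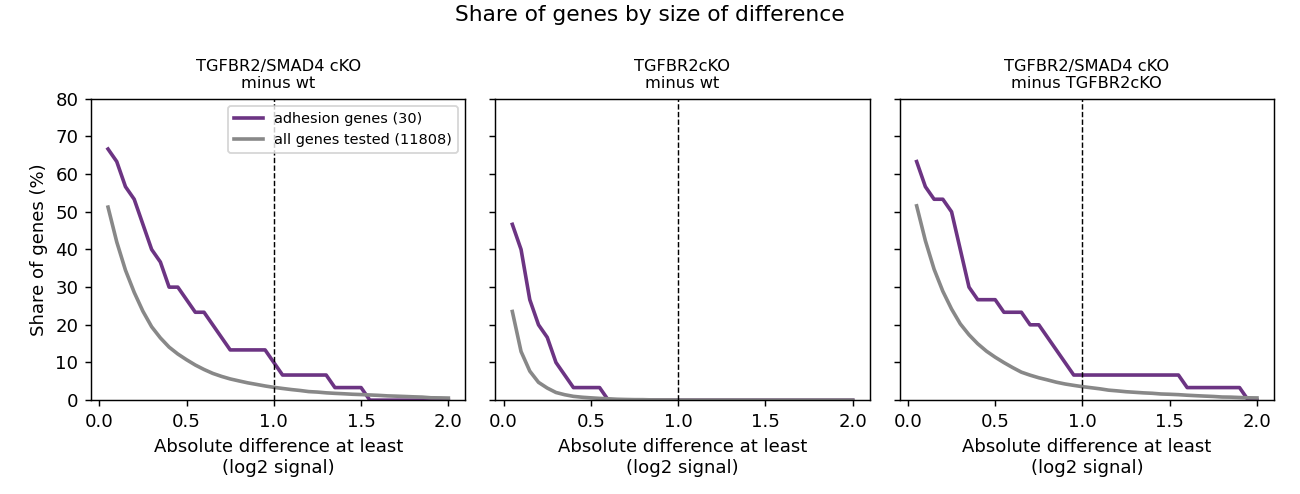
Share of genes (percent) whose absolute difference in log2 signal is at least the value on the horizontal axis, for the 30 adhesion genes that passed the level filter and for all 11808 genes tested, with a dashed line at 2-fold. At 0.5 the adhesion genes read 26.7% for TGFBR2/SMAD4 cKO minus wt, 3.33% for TGFBR2cKO minus wt and 26.7% for TGFBR2/SMAD4 cKO minus TGFBR2cKO.

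The genes around these receptors were taken as lists, also chosen with earlier results known, for TGFBR2/SMAD4 cKO minus wt. Of 31 listed matrix proteins that integrins bind, 29 had a value, and 27 of these passed the level filter. The 2-fold size rule was met by 18.5% of the 27, 3 genes upward and 2 downward. Over all genes tested it was met by 3.4%, with 1.22% upward and 2.18% downward. The median of the 27 was 0.27, beside 0 for all genes tested. Among collagen ligands, Col6a1 had levels of 11.32 in TGFBR2/SMAD4 cKO, 9.43 in TGFBR2cKO and 9.51 in wt, Col6a2 was at 9.99, 8.70 and 8.60, and Col6a3 was at 11.91, 11.02 and 11.08. The listed chains of this microfibril-forming collagen were higher in TGFBR2/SMAD4 cKO than in wt by 1.81, 1.38 and 0.83. A link to Itga11 was not tested. The fibrillar chains Col1a1, Col1a2 and Col3a1 were higher by 0.19, 0.27 and 0.43. Fn1, the fibronectin ligand of the Itga5 product, was at 14.32 in TGFBR2/SMAD4 cKO, 14.25 in TGFBR2cKO and 14.24 in wt, a difference of 0.08 beside the -1.33 of its receptor.

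Laminin chains differed among themselves. Lama2, the alpha chain of the laminin best known from muscle, was at 8.17 in TGFBR2/SMAD4 cKO, 9.82 in TGFBR2cKO and 9.72 in wt, a difference from wt of -1.55. Lama5, Lamb1 and Lamc1 were higher by 0.73, 0.45 and 0.34. Among the CCN proteins, which bind integrins and heparan sulfate, Ccn3 at 5.24 and Ccn2 at -2.17 were the extremes of the list, while Ccn1 was at -0.18. Tnc and Postn, ligands of alpha9 and alphav integrins, were at -0.76 and -0.72.

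**Figure D4:**
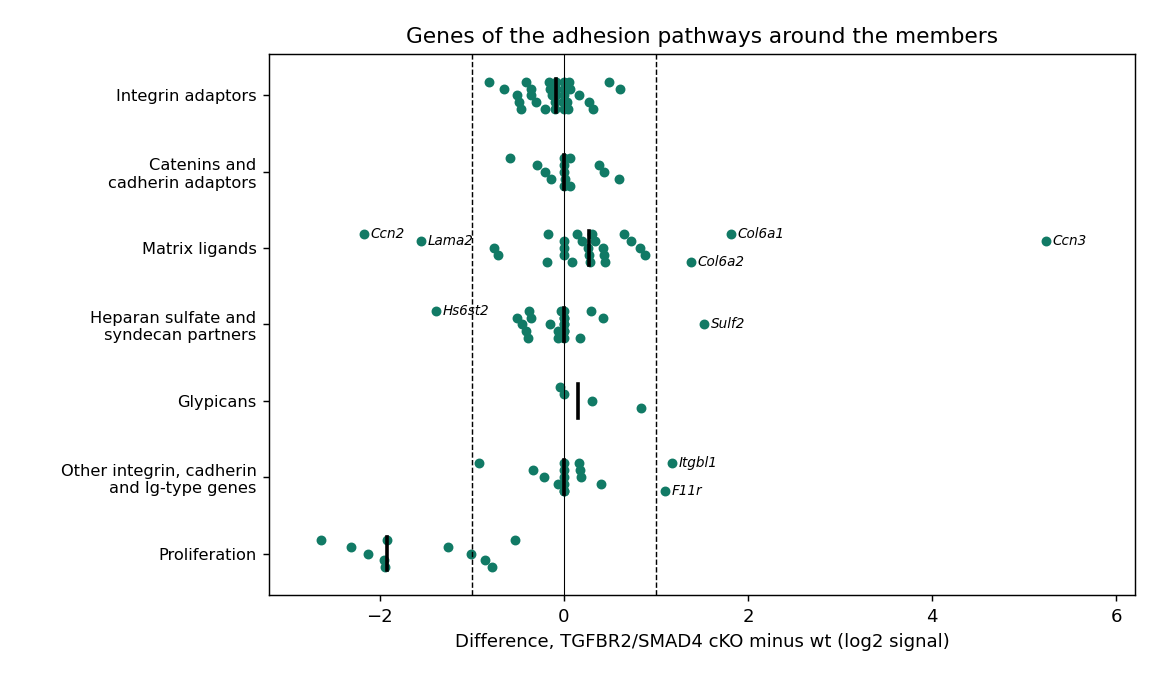
Difference in log2 signal, TGFBR2/SMAD4 cKO minus wt, for genes at or above the median signal in 7 lists, with 1 point per gene, a black bar at each list's median and dashed lines at 2-fold. Genes past 2-fold are named except in the proliferation list, whose median is -1.92.

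Inside the cell more adaptors were lower than higher. Of 32 integrin adaptors and focal adhesion proteins 19 were lower (59.4%), 9 higher (28.1%) and 4 equal (12.5%). Over all genes tested these shares were 32.2%, 31.1% and 36.7%. The median of the 32 was -0.08, and 0 were at least 2-fold different, beside 3.4% of all genes tested. Fermt2, which codes for the kindlin that activates integrins in fibroblasts, was at 11.50 in TGFBR2/SMAD4 cKO, 12.31 in TGFBR2cKO and 12.31 in wt, and Ptk2b, a kinase related to focal adhesion kinase, was at 9.01, 9.84 and 9.66. These were the largest differences in that list, at -0.81 and -0.65. Talin, the adaptor that ties beta subunits to actin, had 11.76, 11.78 and 11.78 for Tln1. For Tln2 it had 8.16, 8.63 and 8.63, a difference of -0.46 between TGFBR2/SMAD4 cKO and wt. Catenins and cadherin adaptors had a median of 0 over 14 genes, with Arvcf at 0.60 and Nectin3 at -0.59. Of the 14, 0 were at least 2-fold different, beside the same 3.4%. Ctnnb1, the beta-catenin that binds cadherin tails, differed by 0.01 while Cdh11 differed by 0.96.

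Heparan sulfate genes, which make and trim the chains that syndecans carry, held 4 genes that were higher (17.4%), 12 lower (52.2%) and 7 equal (30.4%) among 23, beside 31.1%, 32.2% and 36.7% of all genes tested. Sulf2, an enzyme that removes sulfate from those chains outside the cell, was at 11.16 in TGFBR2/SMAD4 cKO, 9.42 in TGFBR2cKO and 9.64 in wt. Hs6st2, an enzyme that adds sulfate at the same position, was at 8.80, 10.27 and 10.18. These were the 1 gene at least 2-fold higher and the 1 at least 2-fold lower in that list, at 1.52 and -1.39. Together they were 8.7% of the 23, beside 3.4% of all genes tested. Of 4 glypicans that passed, the lipid-anchored heparan sulfate carriers, 0 differed 2-fold, beside 3.4% of all genes tested. Gpc6 and Gpc4 were higher by 0.84 and 0.31.

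Other adhesion genes outside the 37 mostly had low signal, with 22 of 38 under the median, beside 8130 of all 19938 genes. The leukocyte integrins Itgal, Itgam, Itgax and Itgb2 were among the 22. Of the 16 that passed, 2 were at least 2-fold higher in TGFBR2/SMAD4 cKO than in wt and 0 lower. That is 12.5%, beside 3.4% of all genes tested, 1.22% higher and 2.18% lower. Itgbl1, which codes for a secreted protein related to beta integrins, was at 8.95 in TGFBR2/SMAD4 cKO, 7.53 in TGFBR2cKO and 7.78 in wt, and the junctional adhesion gene F11r was at 10.33, 9.14 and 9.22. Both were highest in TGFBR2/SMAD4 cKO, by 1.17 and 1.10 over wt. Cadm4, a cell adhesion molecule of the immunoglobulin type, was at 7.61, 8.87 and 8.53, a difference of -1.26 from TGFBR2cKO.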

How the data were processed

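Per the labels' protocols, total RNA of 3 lines went onto Affymetrix Mouse Gene 1.0 ST arrays, 1 per line, read out by transcript. The deposited values of 35556 probe sets were read as log2 signals from their range of 2.82 to 15.6. The sources used here do not give the software, background correction, normalization or build. Array medians differed by at most 0.00413, so values were used as deposited, with 0 other columns of per-sample values.

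The platform annotation gave 21789 probe sets 1 symbol, 1621 several, and 12146 were not listed. Symbols were updated through RefSeq gene identifiers (GRCm38.p6) for 21698 and probe sets were averaged per gene. The members and lists were chosen with earlier results of these data known. Named genes were all members and, from each list but proliferation, those at least 2-fold different or else the 2 most different. The proliferation genes were summarised without names. Of these 11, 8 were at least 2-fold lower in TGFBR2/SMAD4 cKO than in wt, beside 2.18% of all genes tested. Other list and marker genes that are named, such as ligands of a described receptor (Fn1, collagen and laminin chains, Tnc, Postn, Ccn1), Tln1, Ctnnb1, glypicans and cell type markers, were chosen after their values were seen. With 1 array per group no test was run. Alternatives were quantile and cyclic loess normalization, other level filters, the brightest probe set, an offset of 32, and rules of 1.5-fold and 3-fold. The counting was tested on simulated data. Tools were Python 3.11.15, numpy 2.4.6, pandas 2.3.3, matplotlib 3.10.9, R 4.3.3 and limma 3.58.1.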

Additional observations from a re-analysis of the deposited data

How the results depend on the processing

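No paired analysis was possible because each group had 1 array. Of the adhesion genes 2-fold lower in TGFBR2/SMAD4 cKO than in wt, quantile normalization left 1 in place of 2, since Vcam1 read -0.99 in place of -1.03. With a 1.5-fold rule, TGFBR2/SMAD4 cKO had 4 genes higher and 3 lower than wt in place of 1 and 2 (all genes tested 3.35% and 5.09%), and 4 higher and 3 lower than TGFBR2cKO in place of 1 and 1 (3.40% and 5.61%). With a 3-fold rule, it had 0 higher and 0 lower than wt (0.466% and 0.813%), and 1 higher and 1 lower than TGFBR2cKO (0.517% and 0.847%). An offset of 32, cyclic loess normalization and a filter set to the 75th percentile (18 genes counted) left the other counts as they were. The brightest probe set could change no value, since all 37 genes had 1 probe set. Leaving out the filter could change no 2-fold count, since the 7 genes it added differed by at most 0.16. The medians stayed within 0.1 of 0 in all settings run. Over the alternatives Itga11 ranged between 1.52 and 1.58 and Itga5 between -1.33 and -1.29 for TGFBR2/SMAD4 cKO minus wt. No difference of a 2-fold gene reversed. Of single-gene differences 1 moved by over 0.1, that of Cdh13 between TGFBR2/SMAD4 cKO and TGFBR2cKO, which was 0.67 with the offset in place of 0.78. Genes near the median signal are limited by their weak signal.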
